A study of Mus musculus with 11 samples.

Results

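The regions described here are wide, isolated peaks that control probes recovered from the chromatin of HPC5 cells, an established mouse line of hematopoietic progenitors that was derived from bone marrow. They were taken from the deposited list of peaks found with probes against LacZ, a gene of bacteria that mouse cells lack. Members were chosen by width and spacing: a peak was included when it was at least 300 bp wide and no other peak of the list lay within 10000 bp of it on the same chromosome, edge to edge. Of the 5504 LacZ peaks, 5155 (93.7%) were isolated in this sense, and 1047 of these were also at least 300 bp wide (19.0% of all LacZ peaks, 95% Wilson interval 18.01 to 20.08%). The other 4108 isolated peaks, all under 300 bp, are the nearest comparison, and 119 LncHSC-2 consensus peaks of at least 300 bp are a further one. Every value of the authors' peak caller comes from the same pull-down as these widths. Those values are therefore given as a description, with no test, and all positions are 1-based in the mouse build mm9.

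The study mapped the chromatin sites of LncHSC-2, a long non-coding RNA of hematopoietic stem cells, by ChIRP-seq, the sequencing of chromatin isolated by RNA purification. All 11 libraries came from the same line, whose strain the labels give as C57BL/6-cast (B6-cast), with no other treatment than fixation in 1% glutaraldehyde for 10 minutes and sonication to 200 to 500 bp. LncHSC-2 was pulled down in 6 libraries, with the complete set of 12 probes or with its 6 odd- or 6 even-numbered probes. LacZ was pulled down with 6 probes in 2 libraries, which are technical replicates of biological replicate 1, and 3 libraries are input chromatin. The labels tie the background track that carries the name of the LacZ run to the 2 input libraries of biological replicate 2. The labels name 1 list for both LacZ libraries, so no value below has a spread between libraries. How the fragments of a peak divide between the 2 libraries is not known.

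In ChIRP, biotinylated DNA probes hybridize to an RNA in cross-linked, sheared chromatin, and the DNA that streptavidin beads bring down together with the RNA is then sequenced. Probes to an RNA that the cells do not make have no intended target. What they recover is taken as the background of the method, and a peak list from them shows where such background reaches the caller's threshold. The caller gave each fragment a length of 170 bp, so in its reckoning a peak of 300 bp or more is made of fragments at different positions. The sheared pieces themselves, of 200 to 500 bp, could be as long as most of the members. The members are known by their position alone: no genome or annotation of the build mm9 was used here, so neither their genes nor their sequences are given.

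The depth behind the members could be read from the list itself. The deposited fold and p-value of a peak fix the whole number of LacZ fragments at its summit and the local background expected there from input chromatin. All fragment numbers of peaks given below are those at the summit, and a peak as a whole can hold more. A solution was found for 5504 of 5504 LacZ peaks. The lowest background was 0.0868 fragments, the genome-wide level, and 2430 peaks stood over a higher one. Of those, 1510 had a background that was a whole multiple of 0.0352, 766 a whole multiple of 170/1000 of that step, and 150 a whole multiple of 170/10000 of it. The remaining 4 had none of these, and no isolated peak was among them. The steps correspond to whole input fragments counted over 170 bp, over 1000 bp and over 10000 bp, with 170 bp as the length the caller gave to a fragment. They show that 28.4 input fragments were set against 1 LacZ fragment, so the background under the members was counted more finely than the members themselves. By the same reading, the complete-set libraries held 3.83 times (replicate 1) and 5.27 times (replicate 2) as many fragments as the LacZ pull-down.

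Most members were low. At the summit they held a median of 4 fragments (interquartile range 3 to 5, from 3 to 22), and 498 of the 1047 (47.6%, 95% Wilson interval 44.6 to 50.6%) held exactly 3, the fewest of any LacZ peak. That share was 53.0% (51.5 to 54.5%) in narrower isolated peaks, an interval that did not overlap the members', and 51.4% in all LacZ peaks. At least 7 fragments were found in 109 members (10.4%, 8.70 to 12.4%), against 409 of the 4108 narrower isolated peaks (9.96%, 9.08 to 10.9%) and 10.6% of all LacZ peaks. At 7 or more fragments the members' share thus lay at the level of the whole list, while peaks of 3 fragments made up a smaller part of the members; no test was made of either. At least 10 fragments stood at 35 members (3.34%, 2.41 to 4.61%) and at least 15 at 9 (0.860%, 0.453 to 1.63%). Those shares were 2.87% and 0.609% in narrower isolated peaks, and 3.51% and 1.199% in all LacZ peaks. Each of these lay within the members' interval. The deposited fold, the ratio of pull-down to local background, had a median of 4.38 (interquartile range 3.68 to 5.43) and ran from 3.40 to 20.2. The deposited −log10 q had a median of 2.90 (2.20 to 4.86) and ran from 1.56 to 36.5. Because fragments come in whole numbers, 305 members (29.1%) carry the identical fold of 3.68 and −log10 p of 5.66, those of 3 fragments over the lowest background. The 1047 members hold 132 different pairs of fold and p-value in all, so many members are tied with others.

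The members' widths lay close together, around a second hump in the widths of isolated peaks. The median was 342 bp (interquartile range 320 to 367.5), which is 2.01 times the fragment length of 170 bp, and 552 members (52.7%, 49.7 to 55.7%) were at least 2 fragment lengths wide. Under 400 bp were 924 members (88.3%), and 13 (1.24%) reached 500 bp. Among all isolated peaks, the counts fell from 1921 at 170 to 189 bp to 216 at 270 to 289 bp, then stood at 267 at 310 to 329 bp and at 239 at 330 to 349 bp. The same dip and rise appeared among peaks of exactly 3 fragments, with 81 peaks at 270 to 289 bp and 142 at 310 to 329 bp. The threshold of 300 bp lies just before the top of this hump: 117 isolated peaks were 290 to 299 bp wide and 108 were 300 to 309 bp wide. Of the peaks at the threshold, a member of 300 bp (chr6:70649375-70649674) held 3 fragments at its summit, and a peak of 299 bp just outside (chr6:88841613-88841911) held 4. For the spacing, the member nearest to the limit (chr13:42032807-42033186) lay 10074 bp from the next LacZ peak. The nearest wide peak outside (chr7:17376364-17376665) lay 9908 bp from its neighbour. Each of those held 3 fragments at its summit.

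**Figure D1:**
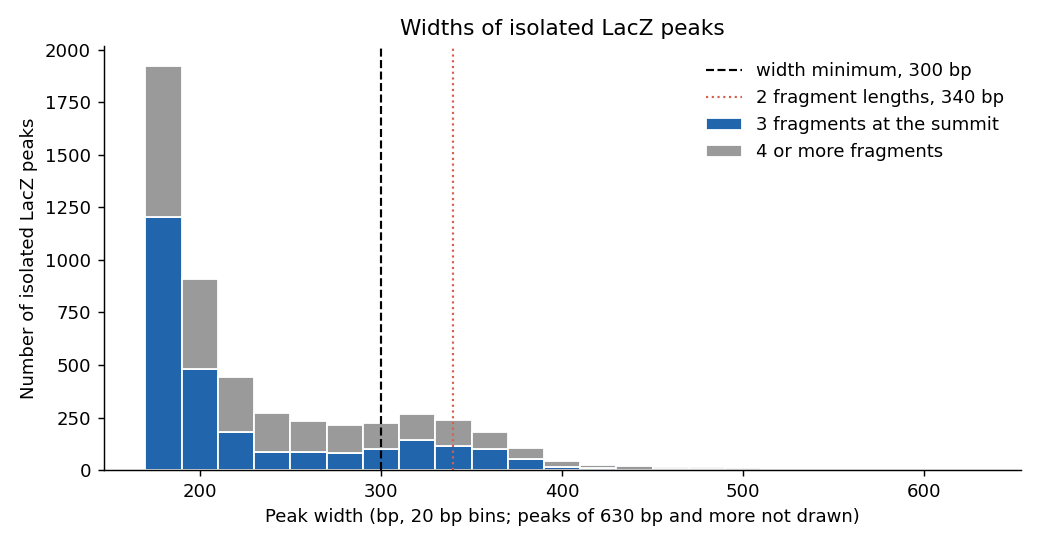
Number of isolated LacZ peaks (vertical axis) by peak width in bp (horizontal axis, bins of 20 bp), with peaks of 3 summit fragments in blue and those of 4 or more in grey. The dashed line marks the minimum of 300 bp and the dotted line 340 bp. Past the tall bins near 170 bp, a low second hump stands at 310 to 349 bp, and the 3 widest members lie beyond the axis.

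Up to 12 fragments, a wide peak was about as frequent at a high summit as at a low one. Among isolated LacZ peaks, 498 of 2675 with 3 fragments were members (18.6%, 17.2 to 20.1%). The share was 24.7% (22.1 to 27.5%) at 4 fragments, 20.2% (17.4 to 23.3%) at 5, and 52 of 260 peaks (15.6 to 25.3%) at 6. At 7, 8 and 9 fragments it was 20.3%, 19.4% and 21.2%, and at 10 to 12 fragments 18 of 99 peaks were members (18.2%, 11.8 to 26.9%). Only the step from 3 to 4 fragments left the intervals apart in this range; no test was made of it, since these peaks share a pull-down and a caller. At 13 to 22 fragments 17 of 51 were members (33.3%, 21.97 to 47.03%). Of the 3 isolated peaks of more than 22 fragments, 0 were members (0 to 56.1%), too few to give a share.

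**Figure D2:**
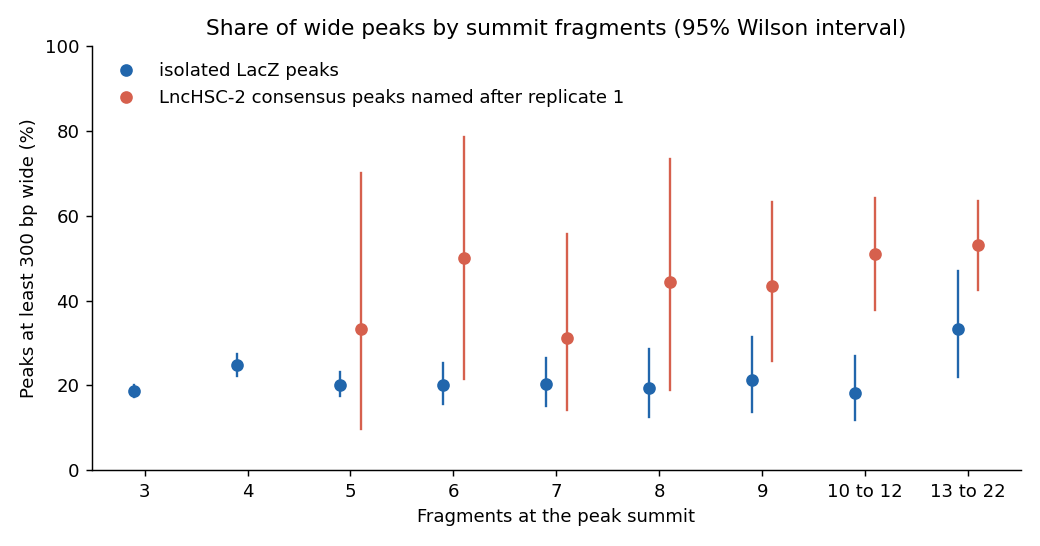
Share of peaks at least 300 bp wide, in percent with 95% Wilson intervals (vertical axis), by whole fragments at the summit (horizontal axis); points resting on fewer than 5 peaks are left out. Isolated LacZ peaks (blue) stay between 18.2% and 24.7% up to 12 fragments, and consensus peaks named after replicate 1 (orange) lie above them at each number drawn.

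The 10 members of highest fold held 14 to 22 fragments. The member with the largest fold in the list (chr5:47743257-47743673, 417 bp wide) held 22 fragments over a background of 4 input fragments in 170 bp, for a fold of 20.2. The next (chr10:120802009-120802370, 362 bp) held 19 fragments over the lowest background, with a fold of 18.4. On chromosome 3 a member of 378 bp (chr3:57092801-57093178) held 17 fragments, with a fold of 16.2; its background came from 19 input fragments in 1000 bp. Among the 10 isolated peaks of highest fold these 3 are members, where members made up 20.3% of all isolated peaks. A member on chromosome 1 (chr1:136644291-136644691, 401 bp) held 16 fragments for a fold of 15.4, and 2 on chromosome 4 held 15 each (chr4:95365511-95365920, 410 bp, fold 14.7, and chr4:43972865-43973174, 310 bp, fold 14.5). A member on chromosome 15 (chr15:41263578-41264098, 521 bp) also held 16 fragments, over 6 input fragments, with a fold of 14.0. The last 3 of the 10 highest shared 14 fragments, the lowest background and a fold of 13.8: chr1:56796413-56796892, chr3:24564184-24564664 and chr4:141033837-141034273, of 480, 481 and 437 bp. In all 10 the summit lay at least 111 bp from the nearer edge.

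The 5 widest members spanned 607 to 778 bp. None of them was among the 10 of highest fold, but lists this short out of 1047 members say little about overlap. None held more than 8 fragments, and at least 10 were found in only 3.34% of all members. The widest (chr5:17291901-17292678) spanned 778 bp, or 4.58 fragment lengths, with 5 fragments and a fold of 5.45. The second (chr6:88444475-88445231) spanned 757 bp with 8 fragments and a fold of 8.28. The other three were 632 bp wide with 5 fragments (chr16:10951048-10951679), 628 bp with 7 (chr9:60385662-60386289) and 607 bp with 4 (chr13:66952072-66952678). The peaks on chromosomes 5, 6, 9 and 13 had their summits to 1 side, at 130, 109, 57 and 98 bp from the nearer edge. The summit of the chromosome 16 peak lay 265 bp from its nearer edge.

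Relative to width, the median distance of summits from the centre was similar in members and narrower peaks, though central summits were more frequent in members. The median distance from summit to centre was 9.67% of the width (interquartile range 4.03 to 19.9%), against 11.0% (4.86 to 19.9%) in narrower isolated peaks and 15.7% (7.99 to 25.4%) in the wide consensus peaks. Summits in the middle 20% of the width made up 51.3% of members (48.3 to 54.3%). That share was 46.1% (44.6 to 47.7%) in narrower isolated peaks, an interval apart from the members', and the difference was not tested. Among members with a −log10 q of at least 5, the median distance was 17.8% of the width. The summit lay at least 85 bp, or 0.5 fragment lengths, from both edges in 871 members (83.2%, 80.8 to 85.3%), in 31.8% of narrower isolated peaks, in 42.5% of all LacZ peaks and in 80.7% of wide consensus peaks. This distance in bp is largely fixed by the width that the rule used. The summit fell on the side of the lower coordinate in 583 members (55.7%, 52.7 to 58.7%), a share that was 55.8% (54.3 to 57.4%) in narrower isolated peaks and 52.1% (43.2 to 60.9%) in wide consensus peaks.

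The input background under members was at the level of the list. It was at its lowest, which allows at most 2 input fragments in 170 bp, under 598 of the 1047 members (57.1%, 54.1 to 60.1%). The same held for 2307 of the 4108 narrower isolated peaks (56.2%, 54.6 to 57.7%) and for 55.9% of all LacZ peaks. The rule did not use the input libraries directly, although the caller did. Input fragments in 170 bp set the background of 304 members (29.0%, 26.4 to 31.9%), with 3 fragments under 139, 4 under 87 and 5 under 55. At 6 fragments stood 12 members (1.15%, 0.657 to 1.99%) and 24 narrower peaks (0.584%, 0.393 to 0.868%), at 7 fragments 7 members (0.669%, 0.324 to 1.37%) and 10 narrower peaks (0.243%, 0.132 to 0.448%). At 8 or more there were 4 members (0.382%) and 13 narrower peaks (0.316%). The 1000 bp window set the background of 113 members (10.8%, 9.05 to 12.8%) and of 597 narrower peaks (14.5%, 13.5 to 15.6%). That is the only class of background in which the 2 intervals did not overlap, and it was not tested.

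The highest input background under an isolated peak lay under a narrower one, the class of 4108 of the 5155 isolated peaks. At 8 or more input fragments in 170 bp the shares of members (0.382%) and of narrower peaks (0.316%) were close. The member over the most input, singled out after its value was seen, lay on the X chromosome (chrX:73843972-73844351, 380 bp). It held 15 fragments over 64 input fragments, a background of 2.25, for a fold of 4.92. The 3 isolated narrower peaks with the most fragments, likewise singled out, held 90 (chr6:103599040-103599278, 239 bp), 75 (chr12:3109901-3110116, 216 bp) and 25 (chr11:108872990-108873219, 230 bp). They stood over 351, 355 and 201 input fragments, and their folds were 6.81, 5.63 and 3.22. Among narrower isolated peaks ranked by fold, the first 3 (chr11:11586002-11586251, chr4:9576600-9576887 and chr8:109411664-109411876) were 250, 288 and 213 bp wide. The third place was shared by 3 peaks of equal fold, of which the first by genome position is given. They held 18, 18 and 17 fragments, close to the highest members, over backgrounds of 0.106, 0.132 and 0.0868.

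**Figure D3:**
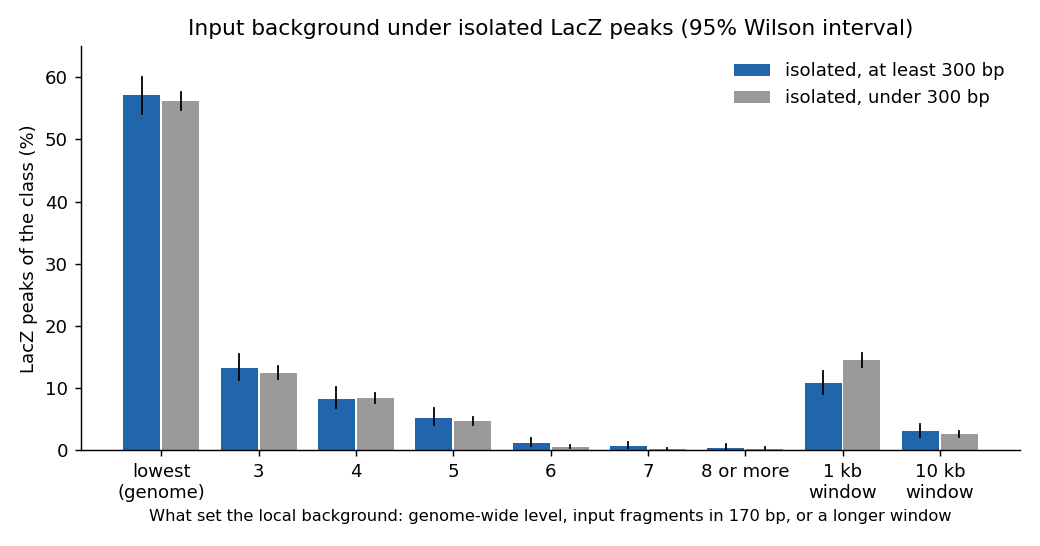
Percent of isolated LacZ peaks (vertical axis, with 95% Wilson intervals) by what set their local background (horizontal axis): the genome-wide level, 3 to 8 or more input fragments in 170 bp, or the 1000 bp or 10000 bp window. Members (blue) and narrower peaks (grey) have nearly equal bars at the lowest background (57.1% and 56.2%) and differ most visibly in the 1000 bp window (10.8% and 14.5%).

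Members occurred on all 20 chromosomes. Their share of isolated peaks was 20.3% overall (19.2 to 21.4%) and ran from 16.5% on chromosome 14 (34 of 206, 12.1 to 22.2%) to 26.4% on the X chromosome (70 of 265, 21.5 to 32.0%). X was the 1 chromosome of 20 whose interval left out the overall share. It was picked out from 20 intervals after they were seen, and no test was made. On X the median width of members (342 bp), their median fragments (4) and the share at the lowest background (57.1%) were, to the digits given, those of members elsewhere. Limited to isolated peaks of 3 fragments, the X share was 21.5% (32 of 149, 15.6 to 28.7%), against 18.6% over all chromosomes. Of the other chromosomes, 13 and 2 had 22.8% each, and chromosomes 15 and 5 had 17.6% and 17.9%. Members lay within 5 Mb of the first LacZ peak of their chromosome in 39 cases (3.72%, 2.74 to 5.05%), a share that was 3.82% in narrower isolated peaks.

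**Figure D4:**
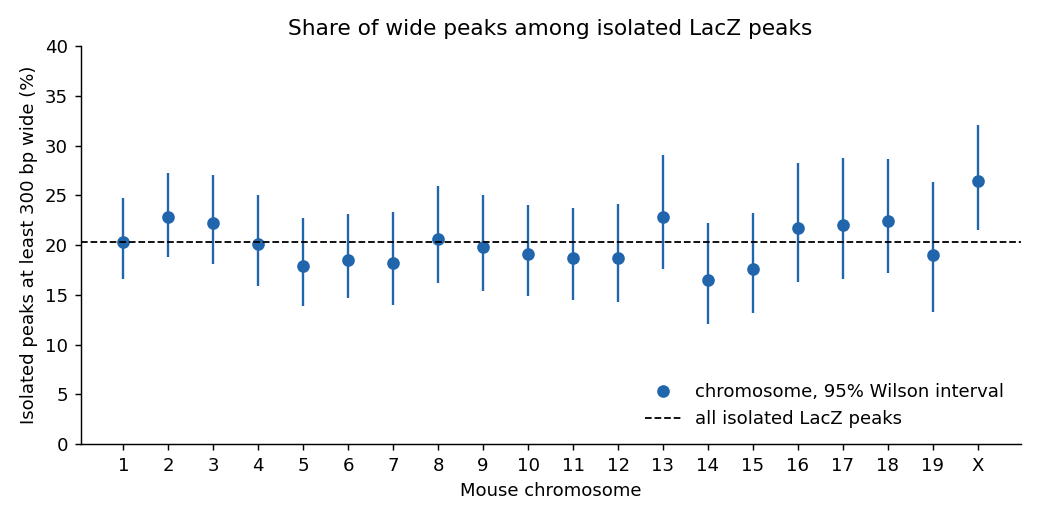
Share of isolated LacZ peaks that are at least 300 bp wide, in percent with 95% Wilson intervals (vertical axis), for each mouse chromosome (horizontal axis). The dashed line is the overall share of 20.3%; the interval of the X chromosome, 21.5 to 32.0%, lies above it and those of the other chromosomes include it.

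Wide and narrow peaks were interspersed. The next LacZ peak lay a median of 171997 bp from a member (interquartile range 75585 to 336608) and 168630 bp from a narrower isolated peak. Another LacZ peak stood within 100000 bp of 351 members (33.5%, 30.7 to 36.4%) and of 33.7% of narrower isolated peaks. The nearest LacZ peak was itself at least 300 bp wide for 215 members (20.5%, 18.2 to 23.1%) and for 828 narrower isolated peaks (20.2%, 19.0 to 21.4%), where 21.1% of all LacZ peaks had that width. So a wide peak had a wide neighbour about as often as a narrow peak did. Among the 349 LacZ peaks that were not isolated, 112 were at least 300 bp wide (32.1%, 27.4 to 37.2%).

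The consensus list of LncHSC-2 sites, which the rule did not use, rarely came near the members. No member shared a base with any of its 264 peaks, and 0 of 1047 allows a share of up to 0.287%. The same held for the whole LacZ list, with 0 of 4108 narrower isolated peaks and 0 of all 5504 LacZ peaks. Within 10000 bp of a consensus peak lay 3 members (0.287%, 0.0975 to 0.839%), 10 narrower isolated peaks (0.243%, 0.132 to 0.448%) and 0.491% of all LacZ peaks. Of the 349 LacZ peaks that were not isolated, 14 did (4.01%, 2.40 to 6.62%). Within 100000 bp lay 22 members (2.10%, 1.39 to 3.16%), 95 narrower isolated peaks (2.31%, 1.90 to 2.82%) and 2.87% of all LacZ peaks. The intervals of members and narrower peaks overlapped at both distances, and whether the consensus list was filtered against LacZ signal is not stated in the labels or file headers.

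The 3 members near a consensus peak held 3, 5 and 5 fragments, around the members' median of 4. On chromosome 9 a member of 318 bp with 3 fragments (chr9:99042842-99043159) lay 1568 bp before a consensus peak of 18 fragments and a fold of 11.4 (chr9:99044728-99045083). On chromosome 2 a member of 317 bp with 5 fragments (chr2:156125003-156125319) lay 3991 bp before a consensus peak of 11 fragments and a fold of 8.80 (chr2:156129311-156129567). A second member, of 342 bp with 4 fragments (chr2:156156453-156156794), lay 26885 bp past the same consensus peak, and the 2 members were each other's nearest LacZ peaks at 31133 bp. On chromosome 3 a member of 353 bp with 5 fragments (chr3:28713882-28714234) lay 9436 bp past a consensus peak of 26 fragments and a fold of 15.3 (chr3:28704184-28704445). All 3 members stood over the lowest background, and all 3 consensus peaks were named after replicate 1 of the complete probe set. A second consensus peak, on chromosome 13 (chr13:77023520-77023764), had 2 members within 100000 bp, at 60595 and 95019 bp on either side.

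Wide peaks made up a larger share of the LncHSC-2 consensus peaks. Of the 264 consensus peaks 119 were at least 300 bp wide (45.1%, 39.2 to 51.1%). It was 110 of 220 (43.4 to 56.6%) for those named after replicate 1 and 20.5% (9 of 44, 11.2 to 34.5%) for those named after replicate 2. The share of isolated LacZ peaks was 20.3%. The caller's fragment length was 186 bp in replicate 1 and 169 bp in replicate 2, so 300 bp, which is 1.76 fragment lengths in LacZ, corresponds to 328.2 bp in replicate 1. At that width 88 of its 220 peaks qualified (33.8 to 46.6%), and 97 of 264 over both replicates (36.7%, 31.2 to 42.7%). Within the range of 5 to 18 fragments, 304 of 1492 isolated LacZ peaks were at least 300 bp wide (20.4%, 18.4 to 22.5%). The corresponding shares were 47.7% (82 of 172, 40.3 to 55.1%) for replicate 1, and 6 of 40 (7.06 to 29.1%) for replicate 2. The excess of wide peaks thus lay in the sites named after replicate 1, and no test was made between lists that differ in depth, in probes and in the selection of peaks.

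The wide consensus peaks had a median width of 385 bp (interquartile range 341 to 464.5) against 342 bp in the members, and 28 of the 119 (23.5%, 16.8 to 31.9%) reached 500 bp against 1.24% of members. They held a median of 13 fragments (10 to 19), in libraries 3.83 and 5.27 times as deep as the LacZ pull-down, and 113 of them (94.96%) held at least 7. Set against the genome-wide background, the medians stood in the other order, with overlapping ranges. Divided by the genome-wide background of its own library, a summit stood a median of 46.1 times above it in members (interquartile range 34.6 to 57.6) and 35.7 times (26.1 to 49.4) in wide consensus peaks. At 3 fragments, the fewest in the LacZ list, the value is 34.6, so depth and the caller's threshold set the lower end of this measure in LacZ. Wide consensus peaks started at 13.7, below any LacZ peak, so the order of the medians cannot rank the lists. The background was at its lowest under 47 of the 119 wide consensus peaks (39.5%, 31.2 to 48.5%), a smaller share than in the members, in libraries where 1 fragment was set against 10.4 and 7.505 input fragments. The 3 wide consensus peaks of highest fold (chr3:142679905-142680726, chr10:70703198-70704328 and chr6:134609247-134609901) were 822, 1131 and 655 bp wide. They held 113, 52 and 49 fragments, which is 310.4, 142.8 and 134.6 times the genome-wide background of their library. The highest member, with 22 fragments, stood at 253.5 times its own. On this scale the highest wide consensus peak was another one, not among these 3 (chr17:39984948-39985773). It held 222 fragments, 609.8 times the genome-wide background, over a local background of 28.8 and with a fold of 7.49.

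**Figure D5:**
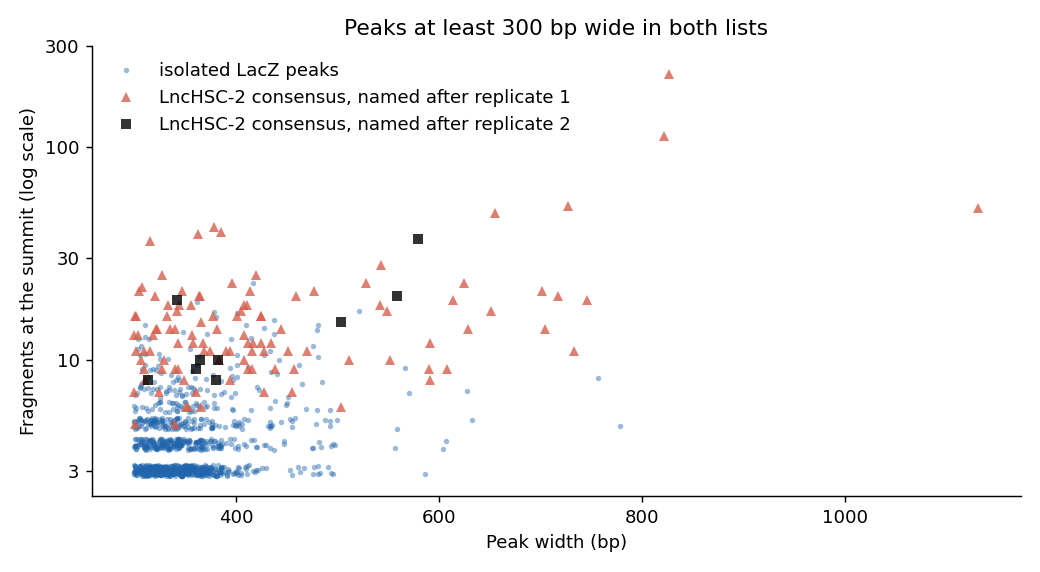
Fragments at the summit (vertical axis, log scale, LacZ points spread slightly to show ties) against peak width in bp (horizontal axis) for all peaks of at least 300 bp: the 1047 members (blue), 110 consensus peaks named after replicate 1 (orange triangles) and 9 named after replicate 2 (black squares). Members crowd at 3 to 5 fragments and under 400 bp, while consensus peaks, from libraries 3.83 and 5.27 times as deep, start at 5 fragments and reach 222.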

How the data were processed

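ChIRP-seq libraries of HPC5 cells are represented by 2 deposited peak lists in mm9, each with 10 columns. Bowtie2 2.0.6 and MACS2 2.0.10.20131216 are named, without settings, in the submitters' processing notes. The deposited ratio (fold at the summit over local background), −log10 p-value, −log10 q-value and score (from the q-value) are those of the authors' caller; LacZ replicates were listed together, per the labels. From them the whole number of fragments n and the background λ were solved with fold = (n + 1)/(λ + 1) and p the Poisson probability of more than n, within 0.0001 of −log10 p beyond rounding; for 1 LacZ peak 2 numbers fitted and the closer was kept. Steps in λ were then fitted. These formulas and windows come from the values, not from a statement of the submitters. Recovery was tested on simulated data. Deposited folds were not compared between lists, whose depths differ. Summits over the genome-wide background were set side by side, without a test. Intervals of shares are 95% Wilson intervals; for a count of 0 the limit is the share that 3 counts make. Both cover counting error only. The peaks described singly were the 10 of highest fold, the 5 widest, the 5 of most fragments, those within 10000 bp of a consensus peak and those next to a threshold; all 5 of most fragments are among the 10. The members and rules were chosen with earlier results of these data known. Alternatives changed the width minimum, the gap, the q-value minimum, the distance to consensus peaks and the replicates. Sequence was not analysed here. Python 3.11.15, numpy 2.4.6, scipy 1.17.1, pandas 2.3.3 and matplotlib 3.10.9 were used.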

Additional observations from a re-analysis of the deposited data

How the results depend on the processing

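Of 78 alternatives 61 stayed within 1 SD of the peaks, within the interval of a share or within 1.5 times a count, and 17 did not; the settings by fragment length, by lowest background and by 3 fragments were chosen after seeing the data. The number of members followed its thresholds: 1612 at a width minimum of 250 bp, 123 at 400 bp, 696 at a gap of 100000 bp and 248 at a −log10 q of at least 5. The minimum of 400 bp gave a median width of 437 bp. The q-value minimum, by construction, gave a median fold of 6.44, a median −log10 p of 11.2 and a median −log10 q of 6.77; the share at the lowest background was then 61.3%, and members made up 35.2% of isolated X peaks (19 of 54) against 20.5% over all chromosomes; the cause was not tested. The share of members near a consensus peak was 0% at 400 bp, within 1000 bp and for summits within 200 bp, and 2.10% within 100000 bp. It rose from 0.287% to 0.716% (8 members) with a gap of 1000 bp and to 0.806% (2 members) at a −log10 q of at least 5, within the interval of the share. Without either complete-set replicate it ranged from 0 to 0.287%, since all 3 cases lay near peaks named after replicate 1, as 220 of the 264 consensus peaks are. The share of consensus peaks of at least 300 bp ranged from 20.5 to 50.0%, falling to 20.5% without replicate 1, and was 36.7% with the minimum in fragment lengths. Depth limits what can be said: 47.6% of members have 3 fragments at the summit. Leaving out a LacZ library was not possible, since both share 1 list. The planned sequence analysis was not made. No paired analysis was possible because both LacZ libraries share 1 list and no test between groups was made.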
